A study of Homo sapiens with 4 samples.

Results

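The genes examined were those of MHC class II antigen presentation together with *CIITA*, and their members were *HLA-DRA*, *HLA-DRB1*, *HLA-DPA1*, *HLA-DPB1*, *HLA-DQA1*, *HLA-DQB1*, *HLA-DMA*, *HLA-DMB*, *CD74* and *CIITA*. A probe was taken when the accession in its annotation was a transcript of a member, which gave 16 probes on 25 spots for 10 of 10 genes, out of 17721 named genes and 41000 probes. The cells were Nalm-6, an established human pre-B leukemia line, and none of the cultures used here had been given hemin. Total RNA was labelled with Cy3 and hybridized to single-color arrays of Agilent. Wild-type cells, cells with Arp5 KO and cells with Arp8 KO have 1 array each, and 1 more bears the label Arp8 overexpression. Arp5 and Arp8 are actin-related proteins of the INO80 chromatin remodeling complex, and the comparisons ask how transcripts differ when either is missing. The *ARP5* and *ARP8* loci had been disrupted by homologous recombination, for *ARP5* on both alleles. The overexpression label goes with a tetracycline-regulated (Tet-Off) Arp8 construct that the series describes for the Arp8 KO cells, and how many clones each line stands for is not given in the sources used here. All 4 arrays may share a slide and a scan. Spots well above background numbered 31188 in wild-type cells, 31420 with Arp5 KO, 30394 with Arp8 KO and 30803 on the array labelled overexpression, of 43376 spots per array. Since no genotype has more than 1 array, differences could not be checked against replicates, p-values are not given, and the number of arrays limits the precision.

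MHC class II molecules are pairs of an alpha and a beta chain that display peptides from endosomes to CD4+ T cells. The DR, DP and DQ chains form the molecules at the cell surface, the invariant chain CD74 occupies the peptide groove during assembly and guides the complex to endosomes, and HLA-DM exchanges the remaining invariant chain fragment for other peptides. CIITA is the coactivator that sets the expression of these genes. It does not bind DNA by itself and is recruited by RFX, CREB and NF-Y proteins at the X and Y boxes of their promoters. B-lineage cells express class II genes without stimulation, and many other cells do so after interferon gamma.

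The values are processed signals, intensities in arbitrary units from which the scanner software had subtracted background. A log2 ratio is the difference between arrays in log2 signal, after the 75th percentile of each array was set to 0. A ratio needed a brighter array well above background. Where the dimmer one was not, the ratio is called a bound, although only dim signals under a floor, given below, were raised. The technical SD of a log2 ratio, from repeated spots of the same probe, had a median of 0.44 for probes whose dimmer signal was under 50 units, 0.06 between 50 and 500 units and 0.03 over 500 units for Arp5 KO over wild-type cells, and was close to these in the other comparisons. It does not include variation between cultures. Each comparison with wild-type cells uses the same wild-type array, so that a deviation of this array enters the ratios of Arp5 KO cells, Arp8 KO cells and the array labelled overexpression alike.

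The targeted genes were measured first. *ACTR5*, which encodes Arp5, gave 1909 units in wild-type cells, 65.3 with Arp5 KO, 1849 with Arp8 KO and 2088 on the array labelled overexpression. It was low in Arp5 KO cells only, where its log2 ratio was -4.84. *ACTR8*, which encodes Arp8, had log2 ratios to wild-type cells of -0.49 and -0.39 on its probes in Arp8 KO cells, and of -0.70 and -0.23 on the array labelled overexpression. The label of the latter array was therefore not borne out by *ACTR8* mRNA, and it is called the array labelled overexpression throughout, without taking the label as shown. This mRNA does not settle the Arp8 KO label either, since *ACTR8* was 0.71-fold and 0.76-fold of its wild-type level there. Set against the array labelled overexpression, Arp8 KO cells were higher on probe A_23_P80694, at 784.8 and 679.3 units, and lower on probe A_24_P131697, with 1654 and 1857 units. *INO80*, which encodes the ATPase of the complex, differed more between these arrays, its probes having log2 ratios to wild-type of 1.02 and 1.08 with Arp8 KO, 0.21 and 0.34 on the array labelled overexpression, and 0.83 and 0.95 with Arp5 KO. Arp8 KO is therefore used as the name that the series gives. Which part of the disrupted or introduced gene these probes cover was not examined.

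All 11 pre-B genes with a named probe were well above background on all 4 arrays. *IGLL1*, a surrogate light chain gene, was nearly level, with 140475 units in wild-type cells, 140829 with Arp5 KO, 136612 with Arp8 KO and 140425 on the array labelled overexpression. Others differed as much as the class II genes or more. *VPREB3* had log2 ratios to wild-type of -0.80 with Arp5 KO, -1.20 with Arp8 KO and 0.044 on the array labelled overexpression, and *VPREB1* had -0.13, -0.60 and 0.15. The B cell receptor genes *CD79A*, with -0.55, -0.12 and 0.50, and *CD79B*, with -0.18, 0.18 and 0.55, were highest on the array labelled overexpression. *MME*, *DNTT* and *EBF1* were lowest there, with -0.49, -0.39 and -0.18 over wild-type cells. Of 9 myeloid and dendritic genes with a probe, 6 were well above background on all 4 arrays and *S100A9* was on none. Of 9 T and NK cell genes, *CD3D*, *CD3G*, *GNLY* and *KLRD1* were not above background on any array, and the other 5 were on all 4. All 4 plasma cell genes were above background. *XBP1* had -0.10, -0.21 and 0.033, while *TNFRSF17* had -0.35, -1.89 and 1.02, and -2.91 for Arp8 KO cells over the array labelled overexpression.

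The promoters are shown because CIITA acts on class II genes through the X and Y boxes of their promoters. RefSeq windows of 300 bases, 250 before and 50 after the start in GRCh38.p14, matched 8 of the 10 members with 9 windows, *HLA-DPA1* having more than 1. The windows of *HLA-DPA1*, which hold none of the motifs below, and that of *HLA-DQA1*, which holds ATTGG only, are not printed. For the others the 150 bases directly before the start are given 5′ to 3′ on the strand of the gene. Capitals mark matches to ACNGATG, the end of the X box, and to ATTGG, the inverted CCAAT of the Y box, on either strand. The stretches lie at chr6:32589849-32589998 for *HLA-DRB1*, chr6:32666658-32666807 for *HLA-DQB1*, chr6:32953098-32953247 for *HLA-DMA*, chr6:32941029-32941178 for *HLA-DMB* and chr5:150412911-150413060 for *CD74*, all on the minus strand, and at chr6:33075840-33075989 for *HLA-DPB1* on the plus strand.
HLA-DRB1: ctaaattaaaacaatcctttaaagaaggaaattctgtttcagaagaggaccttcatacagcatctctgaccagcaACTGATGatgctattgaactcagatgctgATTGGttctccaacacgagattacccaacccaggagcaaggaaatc
HLA-DQB1: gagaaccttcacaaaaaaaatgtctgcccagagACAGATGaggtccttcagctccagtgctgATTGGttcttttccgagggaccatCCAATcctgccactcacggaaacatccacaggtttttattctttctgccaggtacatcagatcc
HLA-DMA: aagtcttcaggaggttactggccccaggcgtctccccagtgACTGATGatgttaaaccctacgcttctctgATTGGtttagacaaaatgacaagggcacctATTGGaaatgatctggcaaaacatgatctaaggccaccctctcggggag
HLA-DMB: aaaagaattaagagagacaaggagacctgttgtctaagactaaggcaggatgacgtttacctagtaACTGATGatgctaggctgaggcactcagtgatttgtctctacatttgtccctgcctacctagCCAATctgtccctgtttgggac
HLA-DPB1: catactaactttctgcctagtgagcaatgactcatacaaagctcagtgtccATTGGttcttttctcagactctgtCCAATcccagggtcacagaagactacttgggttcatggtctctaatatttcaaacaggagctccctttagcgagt
CD74: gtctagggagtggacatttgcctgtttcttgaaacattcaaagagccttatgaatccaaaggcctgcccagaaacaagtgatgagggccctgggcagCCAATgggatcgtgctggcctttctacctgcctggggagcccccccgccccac

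A full X box, written as CCTNGNNAC followed by 3 of any base and TG and searched on both strands, was in 335 of 35116 windows (0.954%). Among the members it was in the window of *HLA-DMB*, as CCTAGTAACTGATG. The Y box GATTGG was in 15.133% of all windows and in 5 of the 9 member windows, those of *HLA-DRB1*, *HLA-DQB1*, *HLA-DMB*, *HLA-DMA* and *HLA-DPB1*. The shorter motifs were chosen after the windows had been seen. ACNGATG, which overlaps the full X box, was in 7.649% of all windows and in 5 member windows, those of *CD74*, *HLA-DRB1*, *HLA-DQB1*, *HLA-DMB* and *HLA-DMA*, and the match of *CD74* lies outside the stretch shown. ATTGG, contained in GATTGG, was in 34.614% of all windows and in 7 member windows. A match is a description of letters and not of a bound site.

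None of the members was beyond 2-fold in any comparison. Of the 16 probes, 14 were well above background on all 4 arrays, 1 probe of *HLA-DQA1* was so on 2 arrays and the other on none. In Arp5 KO over wild-type cells 0 of 14 member probes were higher and 0 lower beyond 2-fold, against 1.19% and 1.08% of all 29912 probes tested. In Arp8 KO over wild-type cells it was 0 of 15 in either direction, against 1.49% and 2.05% of 29528 probes. On the array labelled overexpression over wild-type cells it was again 0 of 15, against 1.5% higher and 2.73% lower of 29694 probes. For Arp8 KO cells over that array, a comparison without the wild-type array, it was 0 of 15, against 0.933% higher and 0.926% lower of 29261 probes. With background shares this low, no call would be the usual outcome for a list of this size.

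The range of a probe over the 4 arrays, from its lowest to its highest log2 level, had a median of 0.36 over the 14 member probes above background on all of them, against 0.38 over all 27921 such probes and 0.31 over the 14981 probes over 500 units on every array. The members ran from 0.14 for a probe of *HLA-DPA1* to 0.87 for *HLA-DMB*. All 14 lay under 1, as did 91.9% of the 27921 probes.

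**Figure D1:**
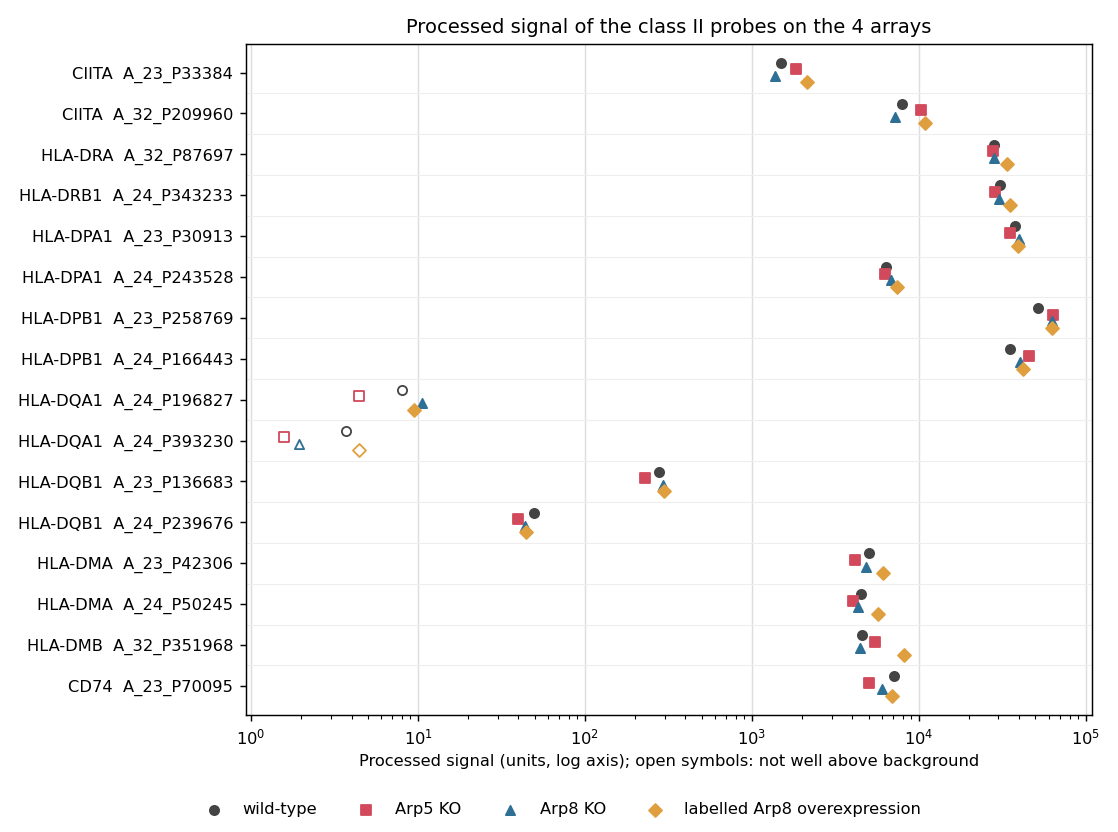
Processed signal (units, log axis) of each of the 16 probes of the class II genes on the 4 arrays, with 1 symbol per array and open symbols where the probe was not well above background. Levels can be compared within a row only; HLA-DMB runs from 4429 units in Arp8 KO cells to 8146 units on the array labelled overexpression, and both HLA-DQA1 probes lie near or below background.

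*CIITA*, the coactivator itself, was above its wild-type level in Arp5 KO cells and on the array labelled overexpression, and slightly lower in Arp8 KO cells. Probe A_32_P209960 had 7899 units in wild-type cells, 10349 with Arp5 KO, 7169 with Arp8 KO and 10891 on the array labelled overexpression. Probe A_23_P33384 had 1497, 1830, 1376 and 2125 units in the same order. On both probes the Arp8 KO and wild-type arrays were the low pair and the Arp5 KO array and the array labelled overexpression the high pair. The log2 ratios to wild-type were 0.42 and 0.32 in Arp5 KO cells, -0.15 and -0.14 in Arp8 KO, and 0.45 and 0.49 on the array labelled overexpression. Each is more than 4 technical SDs from 0, and its direction was kept under every scaling and background correction tried. Arp8 KO cells over the array labelled overexpression gave -0.60 and -0.62.

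The DR chains, the alpha chain gene *HLA-DRA* and the beta chain gene *HLA-DRB1*, were at nearly the same level in both KO lines as in wild-type cells. *HLA-DRA* had 28208 units in wild-type cells, 27758 with Arp5 KO, 28110 with Arp8 KO and 33841 on the array labelled overexpression. Its log2 ratios to wild-type were 0.003, -0.018 and 0.25, so that the first and second lie within the technical SD, and their sign turned under other scalings or under normexp. *HLA-DRB1*, on 10 spots of which 8 or 9 were used on each array, had mean signals of 30773 ± 778, 28422 ± 436, 30031 ± 598 and 35414 ± 778 units (SD over spots). Its log2 ratios were -0.089 in Arp5 KO cells (SD over spots 0.017), -0.048 in Arp8 KO cells (SD 0.016) and 0.19 on the array labelled overexpression (SD 0.029). The array labelled overexpression was the highest for both DR chains. The DRB genes are near-identical to each other, and the signal of each DRB probe is uncertain in its source.

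The DP chains did not move alike. *HLA-DPB1*, the beta chain gene, was lowest in wild-type cells on both probes. Probe A_23_P258769 had 51789 units in wild-type cells, 63974 with Arp5 KO, 62378 with Arp8 KO and 62432 on the array labelled overexpression, and probe A_24_P166443 had 35200, 45446, 40597 and 42053 units. Their log2 ratios to wild-type were 0.33 and 0.40 in Arp5 KO cells, 0.26 and 0.19 in Arp8 KO, and 0.25 and 0.24 on the array labelled overexpression. *HLA-DPA1*, the alpha chain gene that lies next to it, gave smaller values. Probe A_23_P30913 had 37702, 35352, 39937 and 39181 units, with log2 ratios of -0.067, 0.070 and 0.038, and probe A_24_P243528 had 6389, 6309, 6793 and 7368 units, with 0.008, 0.075 and 0.19. The probes of *HLA-DPA1* disagree in sign in Arp5 KO cells and by 0.15 on the array labelled overexpression, where the smaller value turned to -0.033 under quantile normalization.

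The DQ chains were dim. *HLA-DQB1* probe A_23_P136683 had 277 units in wild-type cells, 230.5 with Arp5 KO, 294 with Arp8 KO and 299.3 on the array labelled overexpression, and was lowest in Arp5 KO cells at a log2 ratio of -0.24. Its ratios of 0.073 and 0.094 in Arp8 KO and on the array labelled overexpression are within 2 technical SDs of 0. Probe A_24_P239676, at 49.2, 39.9, 43.8 and 44.5 units, had a log2 ratio of -0.28 in Arp5 KO cells, below its technical SD of 0.44. In Arp8 KO and on the array labelled overexpression it had -0.18 and -0.16, also below its technical SD. The *HLA-DQB1* probes thus disagree in sign there. *HLA-DQA1* probe A_24_P196827 was above background in Arp8 KO cells, at 10.52 units, and on the array labelled overexpression, at 9.53 units. In wild-type and Arp5 KO cells it was not well above background, at 8.05 and 4.42 units. Its signal in Arp8 KO cells was 1.29-fold of that in wild-type cells, a log2 ratio of 0.37, below its technical SD of 0.46. The wild-type signal entered this ratio as measured, so that the value is not a lower limit. Probe A_24_P393230 was not well above background on any array. *HLA-DQA1* is near-identical to *HLA-DQA2* and varies between haplotypes, and how well these probes match the DQ alleles of Nalm-6 cells was not examined.

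**Figure D2:**
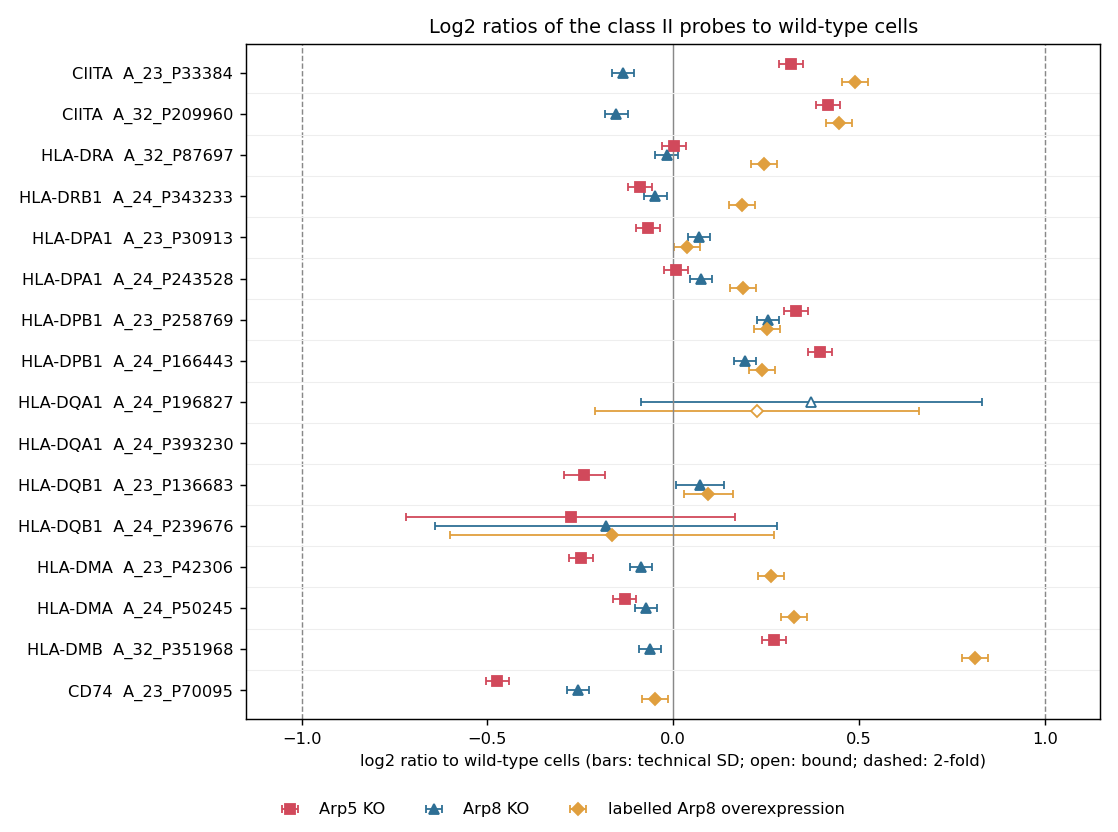
Log2 ratio to wild-type cells of each probe in Arp5 KO, in Arp8 KO and on the array labelled overexpression, with bars of 1 technical SD on each side, open symbols for bounds and dashed lines at 2-fold. All values lie between the dashed lines, HLA-DMB at 0.81 on the array labelled overexpression is the farthest to the right and CD74 at -0.47 in Arp5 KO cells the farthest to the left.

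Among the genes of peptide loading, *HLA-DMB* had the widest range of the members. It had 4584 units in wild-type cells, 5434 with Arp5 KO, 4429 with Arp8 KO and 8146 on the array labelled overexpression, which stood above the other arrays. The log2 ratios to wild-type were 0.27, -0.063 and 0.81, the last being 1.76-fold, and Arp8 KO cells over the array labelled overexpression gave -0.87. *HLA-DMA*, whose product pairs with that of *HLA-DMB*, differed from it in Arp5 KO cells. Its probe A_23_P42306 had 5050, 4172, 4800 and 6135 units and its probe A_24_P50245 had 4484, 4023, 4301 and 5681 units, lowest in Arp5 KO cells and highest on the array labelled overexpression. The log2 ratios of these probes to wild-type were -0.25 and -0.13 in Arp5 KO cells, -0.086 and -0.073 in Arp8 KO, and 0.26 and 0.32 on the array labelled overexpression.

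*CD74*, the invariant chain gene, was lower in both KO lines. Its probe A_23_P70095 had 7099 units in wild-type cells, 5022 with Arp5 KO, 5999 with Arp8 KO and 6951 on the array labelled overexpression. The log2 ratio was -0.47 in Arp5 KO cells, the lowest of the members with a ratio there, and -0.26 in Arp8 KO cells. The array labelled overexpression, with -0.048, was within 2 technical SDs of wild-type cells.

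Over the member probes the median log2 ratio was -0.032 in Arp5 KO cells (n = 14), with 7 probes above 0 and 7 below, against 0.048 over all probes tested. In Arp8 KO cells it was -0.048 (n = 15), against 0.014. On the array labelled overexpression it was 0.24, with 13 of 15 probes above 0, against a median of 0.017 and 15514 of 29694 probes above 0. Arp8 KO cells over the array labelled overexpression gave a median of -0.21, with 12 of 15 probes below 0, against 0.005 and 14381 of 29261 probes below 0. Over the 12 member probes with more than 500 units on both arrays the medians were 0.006, -0.056, 0.25 and -0.25 in the same order, against 0.036, 0.029, 0.048 and -0.012 over all such probes. The sign of the median in Arp5 KO cells thus depends on the dim probes, and it also turned, to 0.006, under normexp. These probes include pairs to the same gene and are not independent.

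At 1.5-fold, *HLA-DMB* was the only member probe of 15 that was higher on the array labelled overexpression than in wild-type cells, against 5.42% of all probes, and 0 were lower, against 7.82%. Arp8 KO cells over that array had 3 of 15 member probes lower, those of *HLA-DMB* and *CIITA*, against 4.03%, and 0 higher, against 4.42%. No member probe passed 1.5-fold in Arp5 KO over wild-type cells, against 5.06% of all probes higher and 3.64% lower. The same held in Arp8 KO over wild-type cells, against 5.45% and 6.8%.

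**Figure D3:**
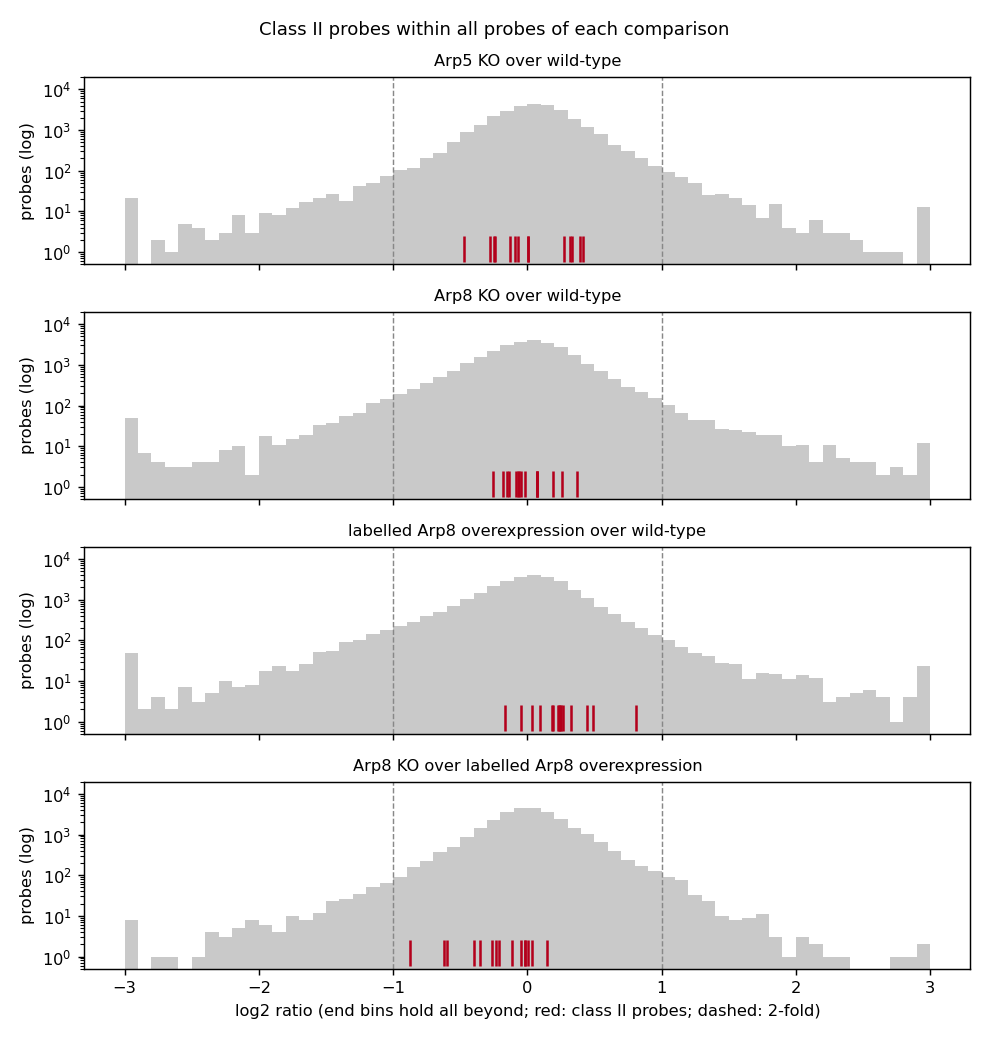
Number of probes (log axis) by log2 ratio in bins of 0.1 for each of the 4 comparisons, with the member probes as red ticks and dashed lines at 2-fold; the end bins hold everything beyond. The ticks lie inside the dashed lines in each panel, around a median of -0.032 for Arp5 KO, -0.048 for Arp8 KO and 0.24 for the array labelled overexpression over wild-type cells, and of -0.21 for Arp8 KO cells over that array.

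Myeloid and dendritic cells express class II genes too, and 6 of the 8 marker genes with a ratio were above their wild-type level on the array labelled overexpression, beside 15514 of 29694 of all probes. *CD68* had 161.9 units in wild-type cells, 257 with Arp5 KO, 210 with Arp8 KO and 571.5 on the array labelled overexpression, where it was highest. *CD1C*, *CSF1R* and *S100A8* were highest there too, with log2 ratios to wild-type of 1.86, 1.18 and, as a bound, 1.04. *LYZ*, at 55.4, 46.3, 142.7 and 139.7 units, and *ITGAM*, at 38.4, 28.4, 74.8 and 55.2 units, were highest in Arp8 KO cells and above wild-type cells on the array labelled overexpression as well. *CD14* was lowest on the array labelled overexpression, at 110 units against 119.5 in wild-type cells, and *CD209* had 71 units there against 74.2. The technical SD was 0.44 for *CD1C*, *CSF1R*, *S100A8* and *ITGAM*, and the log2 ratio of 0.51 for *ITGAM* on the array labelled overexpression is little beyond it. The part of these genes in the higher class II values of that array was not tested. In RNA from whole cultures, fewer cells of a type and less RNA per cell cannot be told apart.

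The other class II genes were measured by 12 probes for 7 of 8 listed genes. The 4 DRB genes besides *HLA-DRB1* had log2 ratios to wild-type cells on the array labelled overexpression of 0.17 for *HLA-DRB3*, 0.25 for *HLA-DRB4*, 0.21 and 0.26 for the probes of *HLA-DRB5* and 0.25 for the pseudogene *HLA-DRB6*. In Arp5 KO cells they were between -0.17 and 0.15. *HLA-DQA2* was above background on probe A_24_P852756 and on no array on its other probe, and the first had 132.3 units in wild-type cells, 101.7 with Arp5 KO, 192.8 with Arp8 KO and 262.7 on the array labelled overexpression. Its log2 ratios were -0.35, 0.53 and 0.97, and the last became 1.01 under quantile normalization, beyond 2-fold, and 0.75 under normexp. The HLA-DO chains restrain HLA-DM in B cells. *HLA-DOB*, at 292.6, 426.2, 332.8 and 253.9 units, was highest in Arp5 KO cells and lowest on the array labelled overexpression, with log2 ratios of 0.57, 0.17 and -0.22. *HLA-DOA* was higher on the array labelled overexpression on each of its 4 probes, by 0.13 to 0.52, and they disagreed in sign in both KO lines. The 7 genes had medians of 0.008, 0.17 and 0.25 in Arp5 KO, in Arp8 KO and on the array labelled overexpression.

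Transcripts of the factors that hold CIITA at class II promoters were measured too. None of the 7 genes for RFX, NF-Y and CREB subunits was beyond 1.5-fold in any of the comparisons. Of all probes, 3.64% to 7.82% were beyond 1.5-fold in each direction, so that few calls would arise among 7 genes. The medians of the 7 genes were 0.00, 0.20 and 0.17 in Arp5 KO, in Arp8 KO and on the array labelled overexpression. *RFX5*, a subunit of the X box factor, had 3977 units in wild-type cells, 4147 with Arp5 KO, 5019 with Arp8 KO and 4966 on the array labelled overexpression, with log2 ratios of 0.087, 0.32 and 0.30. *RFXAP*, another, had -0.048, -0.17 and -0.34. *NFYA*, an NF-Y subunit, had 0.26 and 0.20 in Arp5 KO and Arp8 KO cells on its brightest probe. *NFYC*, also of NF-Y, had -0.004 and 0.21. *CREB1* had 0.14 and -0.28 on its brightest probe, and 0.42 and 0.051 on another, so that its probes disagree in sign in Arp8 KO cells.

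Regulators of *CIITA* and its coactivators had a median absolute log2 ratio of 0.22 with Arp5 KO and 0.31 with Arp8 KO, over wild-type cells. Of the 14 genes measured, 1 was higher and 2 were lower beyond 2-fold in Arp5 KO cells, against 1.19% and 1.08% of all probes, and none in Arp8 KO cells or on the array labelled overexpression. The median over the 14 was 0.053 with Arp5 KO, -0.091 with Arp8 KO and 0.030 on the array labelled overexpression. *PRDM1*, a repressor of *CIITA* in plasma cells, had 44.2 units in wild-type cells, 94.1 with Arp5 KO, 62.4 with Arp8 KO and 63.8 on the array labelled overexpression, and a log2 ratio of 1.12 in Arp5 KO cells. *IRF8*, a factor of lymphoid and myeloid cells, had 80.8, 33.6, 44.3 and 82.9 units and was low in both KO lines, with -1.24 and -0.88. *SPI1*, which encodes PU.1, had 200.7, 86, 157.1 and 194.7 units, and was lowest in Arp5 KO cells with -1.20. These genes are dim, and for *PRDM1* and *IRF8* the technical SD was 0.44. Under normexp, which adds 50 units to every signal and so pulls dim ratios toward 0, the values in Arp5 KO cells became 0.61 for *PRDM1*, -0.55 for *IRF8* and -0.83 for *SPI1*, within 2-fold. *IRF2*, which binds the interferon-responsive promoter of *CIITA*, was highest in wild-type cells, with 1325 units against 876.6 with Arp5 KO, 907.7 with Arp8 KO and 987.7 on the array labelled overexpression. Its log2 ratios were -0.57, -0.56 and -0.44, and its dimmer probe gave -1.001, -0.89 and -0.85. The value of the dimmer probe in Arp5 KO cells is just beyond 2-fold, and it is not in the counts above, which use the brightest probe of each gene.

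The interferon gamma pathway was measured by 8 genes, and *IFNG* itself was not well above background on any array. Of the other 7, *GBP2*, a guanylate-binding protein gene that interferon gamma induces, was higher beyond 2-fold in Arp5 KO cells and on the array labelled overexpression. Of all probes, 1.19% and 1.5% were higher beyond 2-fold in these comparisons. *GBP2* had 16.5 units in wild-type cells, 35.1 with Arp5 KO, 26 with Arp8 KO and 44.6 on the array labelled overexpression, with log2 ratios of 1.11, 0.64 and 1.42. *SOCS1*, an inhibitor of the JAK kinases, had 530.5, 257, 346.6 and 467.8 units and was lowest in Arp5 KO cells, with -1.02. Of all probes, 1.08% were lower beyond 2-fold there. The dimmer probe of *SOCS1* gave -0.57. Under normexp neither passed 2-fold in Arp5 KO cells, with 0.39 for *GBP2* and -0.80 for *SOCS1*, and *GBP2* became 0.44 on the array labelled overexpression. *GBP1* was lower in both KO lines, with -0.56 and -0.57. *IFNGR2*, a receptor chain, had -0.52 with Arp5 KO, -0.19 with Arp8 KO and 0.38 on the array labelled overexpression. The medians over the 7 genes were -0.38, -0.17 and -0.021.

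Genes of endosomal peptide processing and traffic were mostly above 0 in 2 of the comparisons with wild-type cells. Of 9 genes above background, 5 had a log2 ratio above 0 with Arp5 KO, 9 with Arp8 KO and 8 on the array labelled overexpression, with medians of 0.006, 0.20 and 0.33. Of all probes, 17014 of 29912, 15307 of 29528 and 15514 of 29694 were above 0. In Arp5 KO cells the 5 became 4, with a median between -0.036 and -0.012, under 4 changes of scaling. On the array labelled overexpression the 8 became 7 under normexp. In Arp8 KO cells the 9 became 8 with the deposited table, and also when the percentile was taken over above-background probes. None of the 9 genes was beyond 2-fold, as is usual at background shares of 1.08% to 2.73% over wild-type cells. *CTSB*, which encodes cathepsin B, was lowest in wild-type cells, with 4960 units against 6355 with Arp5 KO, 7320 with Arp8 KO and 7707 on the array labelled overexpression. Its log2 ratios were 0.38, 0.55 and 0.62, and its other probes gave the same signs. *CTSL*, which encodes cathepsin L, had -0.10, 0.45 and 0.52. *CST3*, the gene for the cathepsin inhibitor cystatin C, had -0.40, 0.44 and 0.33, and *CD63*, a tetraspanin of late endosomes, had 0.32, 0.42 and 0.20. *LGMN* and the ubiquitin ligase gene *MARCHF1* were not well above background on any array.

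Class I genes, whose heavy chains pair with the product of *B2M* and present peptides to CD8+ T cells, were compared with the class II genes because some respond to the same promoter boxes. The 18 listed genes had medians of 0.14 with Arp5 KO, 0.11 with Arp8 KO and 0.20 on the array labelled overexpression, with 12, 11 and 15 of 18 above 0, beside 17014 of 29912, 15307 of 29528 and 15514 of 29694 of all probes. None was beyond 2-fold, as is usual at background shares of 1.08% to 2.73%. *HLA-F* had 19316 units in wild-type cells, 27963 with Arp5 KO, 31575 with Arp8 KO and 27319 on the array labelled overexpression, with log2 ratios of 0.56, 0.70 and 0.48. *HLA-B* had 0.47, 0.46 and 0.34. *B2M*, on 10 spots, had 0.27, 0.39 and 0.45, with an SD over spots of 0.03 to 0.04. Wild-type cells were thus the lowest array for *HLA-F*, *HLA-B* and *B2M*. The heavy chain genes are near-identical to each other and their probes are uncertain in their source. *ERAP1*, an aminopeptidase that trims class I peptides, was highest in wild-type cells, with -0.42, -0.78 and -0.30.

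**Figure D4:**
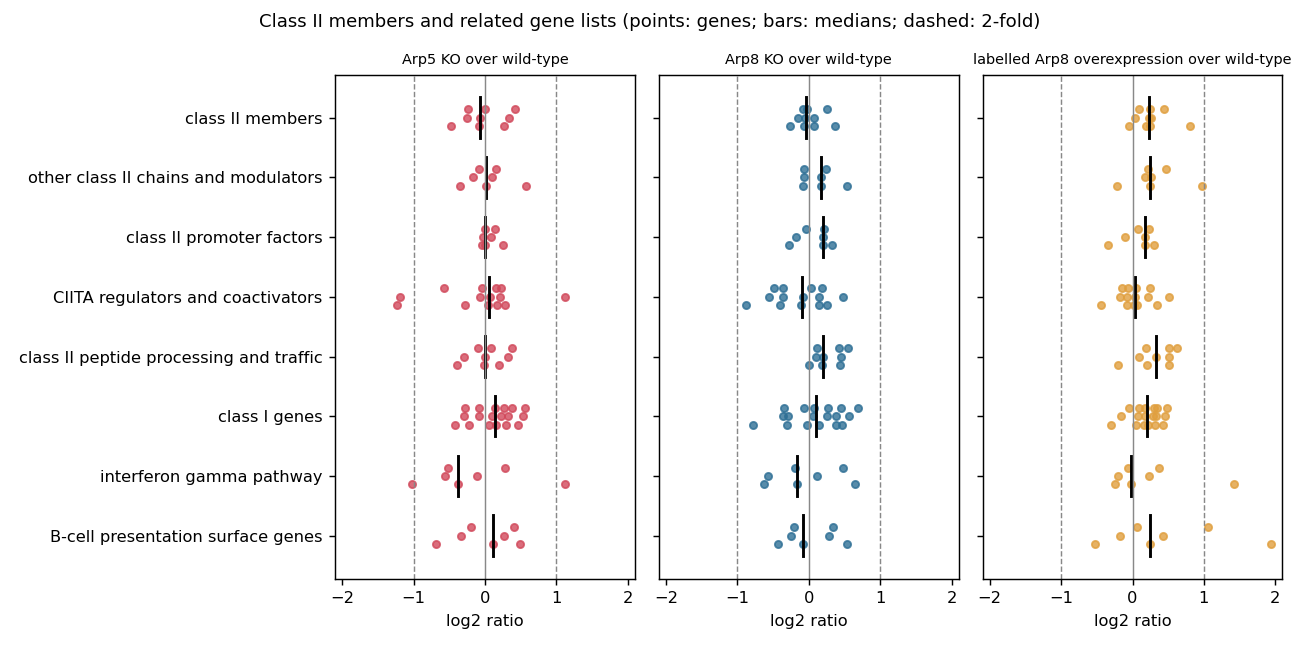
Log2 ratio to wild-type cells of each gene of the class II members and of 7 related lists, by its brightest probe, in Arp5 KO, in Arp8 KO and on the array labelled overexpression; short bars are medians, bounds are included and dashed lines are at 2-fold. The members keep within the dashed lines, while genes of the regulators of CIITA, the interferon gamma pathway and the surface genes lie beyond them.

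Of the 7 surface genes of B cells in antigen presentation with a ratio to wild-type cells, 2 were higher beyond 2-fold on the array labelled overexpression and 0 lower. The shares over all probes were 1.5% and 2.73%. None was beyond 2-fold in either KO line, where the ratios of *MS4A1* are bounds. *ICAM1*, an adhesion molecule for T cells, had 719.3 units in wild-type cells, 559.9 with Arp5 KO, 916.5 with Arp8 KO and 1512 on the array labelled overexpression. It was highest on the last, with a log2 ratio of 1.05, or 0.98 under normexp. *MS4A1*, which encodes CD20, had 12.6 units in wild-type cells and 48.9 on the array labelled overexpression, a log2 ratio of 1.93 that became 0.51 under normexp, and did not stand well above background with Arp5 KO or Arp8 KO. Arp8 KO cells over the array labelled overexpression therefore gave a bound of -2.37 for *MS4A1*. Over wild-type cells its bounds were -0.68 with Arp5 KO and -0.43 with Arp8 KO. If its 2.6 units with Arp5 KO were not raised to the floor of 7.75 units, the log2 ratio there was -2.255. This is lower beyond 2-fold, so that the absence of a call for *MS4A1* in Arp5 KO cells depends on the floor. *CD83* was highest in Arp8 KO cells, with 0.53. *CD86*, a costimulatory ligand, had 0.40, -0.25 and -0.53.

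The class II genes other than *CD74* and *CIITA* lie next to each other in the genome, and their neighbours were examined after the data had been seen. By the order of genes in GRCh38.p14, 18 coding genes start between *HLA-DRA* and *HLA-DPB1*, of which 8 are members. Of the 10 others, 9 had a probe above background on all 4 arrays and none of these was beyond 2-fold in any comparison, where the background shares were 0.926% to 2.73%. Their median log2 ratios to wild-type were 0.11 with Arp5 KO, 0.17 with Arp8 KO and 0.18 on the array labelled overexpression, against 0.048, 0.014 and 0.017 over all probes. Above 0 were 7, 7 and 8 of the 9, beside the counts of all probes given for the class I genes. Besides the class II genes already given they are *BRD2*, *TAP1*, *TAP2*, *PSMB8* and *PSMB9*. *BRD2*, a bromodomain protein gene between the DM and DO genes, had 0.38, -0.004 and 0.18. *TAP1*, a chain of the class I peptide transporter, had 0.15, 0.46 and 0.17.

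Genes with the most similar profile were sought by the Euclidean distance between log2 levels centered over the 4 arrays, among 19272 named probes above background on all of them and outside the lists. The nearest to *HLA-DRA* were *DERL2*, *ARFGAP2* and *SMG9*, at distances of 0.009, 0.013 and 0.016. *CD74* had *PDSS2*, *SMARCC2* and *SLC23A3*, at 0.029, 0.034 and 0.043. For *CIITA* they were *RTL10*, *ING5* and *ZXDC*, at 0.044, 0.066 and 0.070. *RTL10*, for example, had log2 ratios to wild-type cells of 0.41, -0.20 and 0.39 beside 0.42, -0.15 and 0.45 for *CIITA*. How close the neighbours of other genes lie was not examined.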

How the data were processed

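Total RNA of Nalm-6 cells was measured on 4 single-color Agilent arrays, 1 per genotype. The authors deposited the output of Agilent Feature Extraction 10.5.1.1, whose processed signal is an intensity, background-subtracted by the software with no scaling of arrays to each other. A further deposited table of intensity values was found to be the processed signal times 1 factor per array, from 0.8073 to 0.8472, with column medians of 127.4 (wild-type), 127.9 (Arp5 KO), 122.5 (Arp8 KO) and 119.1 (array labelled overexpression). Its scale and direction follow from this match, and how the factors were set is not given in the sources used here.

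From these intensities, control and outlier spots were left out, spots of a probe were averaged, and log2 values were taken relative to the 75th percentile of each array. A dim side that was not well above background and lay under a floor was raised to it, and one at or over the floor kept its signal. The floor was the lowest probe signal well above background on an array. It was 7.76 units (wild-type), 7.75 (Arp5 KO), 9.44 (Arp8 KO) and 8.87 (array labelled overexpression). No spot was saturated. The technical SD of a single-spot ratio was applied to each probe. The code for ratios and calls was tested on simulated data, which gives no error rate for these arrays. Accessions were named by the RefSeq gene table of GRCh38.p14, which matched 26222 of 41000 probes (64.0%); the scanner files name another build, so the table served for names and gene order only. A gene takes its probe with the highest mean level. All members and other class II genes are named, and from each other list at most the 4 genes with the largest absolute log2 ratio in Arp5 KO or Arp8 KO over wild-type cells, and any gene beyond 2-fold; *B2M*, *RFXAP*, single marker genes and genes near the class II genes were added after the data were seen. Members and lists were chosen with earlier results of these data known. Normexp was run on the median signal, since the scanner files hold no mean signal, by limma 3.58.1 (R 4.3.3) at an offset of 50; other steps used Python 3.11.15, numpy 2.4.6, pandas 2.3.3 and matplotlib 3.10.9. Alternatives were other scalings, the deposited table, normexp, other filters on dim probes, kept outlier spots, other fold thresholds and genes in place of probes. Hemin-treated cells were not analysed here.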

Additional observations from a re-analysis of the deposited data

Results flagged for a closer look

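*CIITA* and *HLA-DMB* were above wild-type cells in Arp5 KO cells and below them in Arp8 KO cells, on every probe and by more than 2 technical SDs each. The log2 ratio in Arp5 KO cells minus that in Arp8 KO cells was 0.45 for *CIITA* probe A_23_P33384, from 0.32 and -0.14, and 0.57 for probe A_32_P209960, from 0.42 and -0.15. It was 0.33 for *HLA-DMB* probe A_32_P351968, from 0.27 and -0.063. These differences were not tested, since each KO line has 1 array, and the technical SD holds no variation between cultures. Both ratios use the same wild-type array, which cancels in the difference. Over the other settings the ratio of *HLA-DMB* in Arp8 KO cells ran from -0.088 to -0.013, and its sign there is the least certain of these values.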

How the results depend on the processing

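No paired analysis was possible since only 1 array stands for each genotype. Among the member probes, the counts beyond 2-fold were 0 in every comparison and direction under all alternatives that kept this threshold but 1. With no filter on dim probes, 1 member probe was lower in Arp5 KO over wild-type cells and 1 in Arp8 KO cells over the array labelled overexpression, in both cases the *HLA-DQA1* probe that was not well above background on any array, which that setting admits. At 1.5-fold, 1 was higher on the array labelled overexpression than in wild-type cells and 3 were lower in Arp8 KO cells than on that array. The median over member probes in Arp5 KO cells, -0.032, was -0.091 under quantile normalization, -0.074 with the deposited table, 0.006 under normexp, -0.078 with no filter on dim probes and -0.067 with genes in place of probes. In Arp8 KO cells, -0.048 became -0.079 under quantile normalization and -0.013 under normexp. On the array labelled overexpression, 0.24 became 0.17 under quantile normalization, 0.20 with the 75th percentile over probes well above background and 0.19 with the deposited table. Arp8 KO cells over that array, at -0.21, gave -0.17 with the percentile over probes well above background. The cause of these moves was not tested. The median over member probes changed sign in Arp5 KO cells, under normexp and when only probes over 500 units were kept (0.006 each). Over member genes, the median in Arp8 KO cells went from -0.033 to 0.005 under normexp. Of 39 member values, 17 moved by more than the technical SD under quantile normalization, 16 with the percentile over probes well above background, 16 with the deposited table and 13 under normexp. Under these settings 36, 45, 43 and 72 of 136 values of the other named genes did. The remaining settings moved no member value that far, and those on dim probes can hardly move bright ones. In Arp5 KO cells 12 of 14 member probes kept their sign under each of 4 changes of scaling, and 12 of 15 did in Arp8 KO cells over the array labelled overexpression under normexp. Signal over background limits the DQ genes, *PRDM1*, *IRF8*, *GBP2*, *MS4A1*, *TNFRSF17*, *CD1C*, *CSF1R*, *S100A8*, *ITGAM* and *LYZ*, whose dimmest signals were under 50 units on at least 1 array.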
